A study of Mus musculus with 6 samples.

Results

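The metallothionein genes Mt1, Mt2 and Mt3 and the gene of their metal-sensing transcription factor, Mtf1, were examined in the amygdala of mice given either of 2 diets, a zinc diet or a control diet. The members were all probe sets whose platform annotation gives one of these 4 gene symbols, out of 18193 named genes, and 9 of the 45101 probe sets on the array qualified. Mt1 had 2 probe sets, Mt2 and Mt3 had 1 each, and Mtf1 had 5. The 6 mice were males of the inbred strain 129S1/SvImJ, 8 to 10 weeks old, and RNA from the whole dissected amygdala of each was hybridised to 1 Affymetrix Mouse430_2 array, which reads transcripts near their 3′ end. All 6 had gone through fear extinction training and were killed 2 h later. The control diet group ("Ctrl" in the labels) held replicates 1, 9 and 11, and the zinc diet group ("ZnR") held replicates 3, 7 and 10, numbered as in the labels. The labels do not state how much zinc either diet held, so the groups are compared only as zinc diet against control diet.

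Metallothioneins are small, cysteine-rich proteins that bind zinc and copper in the cytosol and buffer the free zinc of the cell. Mt1 and Mt2 are made in most tissues and in the brain mainly by astrocytes, and their transcription is known to be induced by zinc, by glucocorticoids and by oxidative stress. Mt3 is the brain-enriched member, also found in neurons, and is known to respond little to zinc. MTF1, the protein of Mtf1, is a zinc finger factor that binds DNA when cytosolic zinc is high and drives Mt1 and Mt2 through short metal response elements; it is regulated mainly by zinc binding and by its location in the cell. Mt4, the family member of stratified epithelia, lies in the same gene cluster: in the RefSeq order of assembly GRCm38.p6, chromosome 8 carries Mt4, Mt3, the long noncoding RNA gene Gm39227, Mt2 and Mt1 next to each other, while Mtf1 is on chromosome 4.

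All 4 members matched the RefSeq promoter table (GRCm38.p6), which gives 250 bases before and 50 after a start site. The promoters are shown because they differ in the sequence that MTF1 is known to read. Capitals mark matches to the metal response element core, searched on both strands as TGCACNC and TGCGCNC, where N is any base.
Mt1 promoter, chr8:94178839-94179138, plus strand: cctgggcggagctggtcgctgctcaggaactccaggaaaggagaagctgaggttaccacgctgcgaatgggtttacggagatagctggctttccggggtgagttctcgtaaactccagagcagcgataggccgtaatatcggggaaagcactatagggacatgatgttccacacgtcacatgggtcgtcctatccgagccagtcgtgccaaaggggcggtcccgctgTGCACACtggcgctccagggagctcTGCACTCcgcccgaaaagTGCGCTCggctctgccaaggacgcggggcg
Mt2 promoter, chr8:94172368-94172667, plus strand: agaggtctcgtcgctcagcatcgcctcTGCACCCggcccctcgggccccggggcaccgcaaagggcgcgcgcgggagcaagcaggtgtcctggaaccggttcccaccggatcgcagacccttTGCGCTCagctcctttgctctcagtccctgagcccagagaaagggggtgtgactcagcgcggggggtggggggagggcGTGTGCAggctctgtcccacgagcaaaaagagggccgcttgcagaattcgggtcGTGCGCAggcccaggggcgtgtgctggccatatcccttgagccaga
Mt3 promoter, chr8:94152357-94152656, plus strand: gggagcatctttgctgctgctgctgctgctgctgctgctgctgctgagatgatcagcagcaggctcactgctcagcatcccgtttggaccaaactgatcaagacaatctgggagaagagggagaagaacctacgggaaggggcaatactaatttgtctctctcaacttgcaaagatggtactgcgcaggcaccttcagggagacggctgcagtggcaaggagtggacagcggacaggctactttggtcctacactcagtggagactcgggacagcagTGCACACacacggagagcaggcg
Mtf1 promoter, chr4:124802299-124802598, plus strand: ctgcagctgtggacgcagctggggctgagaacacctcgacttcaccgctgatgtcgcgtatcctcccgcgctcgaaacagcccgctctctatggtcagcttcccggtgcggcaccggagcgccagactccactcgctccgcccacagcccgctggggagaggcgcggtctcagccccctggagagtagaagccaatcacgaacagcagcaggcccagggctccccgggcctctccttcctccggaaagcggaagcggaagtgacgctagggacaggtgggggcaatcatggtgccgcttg
The window of Mt1 held 3 matches, at positions -23, 3 and 21 counted from the start site. Mt2 held 4 matches, with their first bases at -223, -128, -50 and 5, the last 2 of them on the minus strand. Mt3 held 1 match, at position 28, and Mtf1 held 0. No match overlapped another. Of the 32851 promoters in the table, 25.7% held at least 1 match, 1.97% at least 3 and 0.517% at least 4, so the counts of Mt1 and Mt2 are uncommon and that of Mt3 is not. The core of the antioxidant response element, TGACNNNGC, matched once in Mt2, at -79, and not in the windows of the other 3 genes, against 12.4% of promoters with at least 1 match. The E-box CACGTG matched in none of the 4 windows, against 7.15% of promoters. A match describes letters only. Each count and position depends on the start site that the RefSeq promoter table gives, and other start sites, also for Mt1, were not examined.

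**Figure D1:**
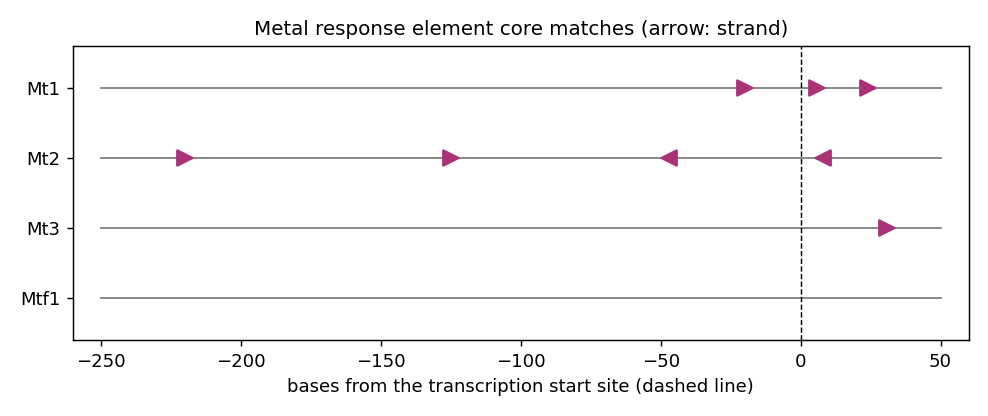
Positions of metal response element core matches in the 300-base promoter windows of Mt1, Mt2, Mt3 and Mtf1. The x axis is the distance in bases from the start site, and arrows point right for the plus strand and left for the minus strand. Mt1 has 3 matches from -23 to 21, Mt2 has 4 spread from -223 to 5, Mt3 has 1 and Mtf1 has none.

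Mt2 was the member whose levels were separated by diet. Its probe set 1428942_at gave log2 levels of 12.49, 12.54 and 12.68 in control replicates 1, 9 and 11. In zinc diet replicates 3, 7 and 10 it gave 12.14, 12.31 and 12.40. Every zinc diet mouse lay below every control mouse, with a gap of 0.087 between the highest zinc diet value and the lowest control value. The group means were 12.57 ± 0.10 in control mice and 12.28 ± 0.13 in zinc diet mice (SD, n = 3 each). The log2 difference of -0.29 ± 0.098 (SE) corresponds to a 1.22-fold lower level, and its 95% interval ran from -0.52 to -0.053. The difference did not pass the test over all 22877 probe sets (limma adjusted p = 0.73). Its unadjusted limma p of 0.023 ranked 730th among them. In linear terms the interval was a zinc to control ratio of 0.697 to 0.964.

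Mt1 showed a smaller difference of the same sign, and its diets met. Probe set 1422557_s_at gave 12.81, 12.68 and 12.86 in control replicates 1, 9 and 11 and 12.57, 12.65 and 12.68 in zinc diet replicates 3, 7 and 10. Zinc diet replicate 10 and control replicate 9 differed by less than 0.001, and otherwise the zinc diet mice were lower. The means were 12.78 ± 0.095 and 12.63 ± 0.055 (SD, n = 3 each). The log2 difference was -0.15 ± 0.081 (SE), with a 95% interval of -0.34 to 0.043 (limma adjusted p = 0.82). The suffix of this probe set marks a design that can match related transcripts, and whether it also reads Mt2 cannot be settled from the values. The second Mt1 probe set, 1451612_at, ranged only from 3.64 to 4.13 with a mean of 3.97, just under the filter of 4 on the mean log2 level, and was not tested. Its zinc diet mean was 0.11 higher than its control mean, within the SD of 0.24 among the control mice, so no direction is read from it.

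Mt3 differed least. Probe set 1420575_at gave 9.99, 9.89 and 10.01 in control replicates 1, 9 and 11 and 9.92, 9.91 and 9.83 in zinc diet replicates 3, 7 and 10. The diets overlapped, because control replicate 9 lay below 2 of the zinc diet mice. The means were 9.96 ± 0.062 and 9.88 ± 0.049 (SD, n = 3 each). The difference was -0.078 ± 0.074 (SE), with a 95% interval of -0.25 to 0.097 (limma adjusted p = 0.90). Mt4 was listed between 2.01 and 2.31 in all 6 mice, far under the filter, so no signal that could be compared was seen for it.

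**Figure D2:**
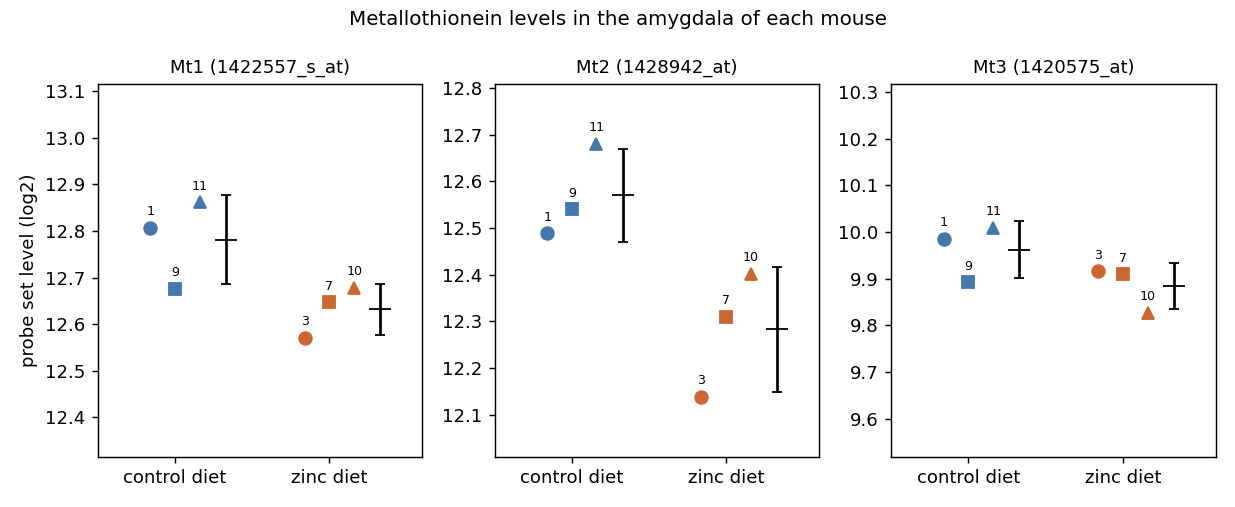
Log2 levels of the tested Mt1, Mt2 and Mt3 probe sets in each mouse, labelled with its replicate number; blue is control diet, orange is zinc diet, and bars are mean ± SD of 3 mice. Each panel spans the same 0.8 log2 units. Mt2 is the panel in which all zinc diet mice (12.14 to 12.40) lie below all control mice (12.49 to 12.68).

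Counted together, 6 of the 9 member probe sets reached the filter and were tested. Of these, 0 passed an adjusted p of 0.05 in limma, as did 0 (0%) of all probe sets tested. At an unadjusted p under 0.05 there was 1 member, Mt2, against 6.38% of all probe sets tested. Mt2 was also the 1 member whose zinc diet values all lay below its control values, which held for 5.33% of all probe sets. A single probe set of 6 is read against those shares and is no result about the group. In sign, 5 of the 6 were lower in zinc diet mice, with a median log2 difference of -0.11, while 47.0% of all probe sets tested were lower and their median was 0.0091. In bulk tissue, fewer cells that express a gene and less RNA per cell cannot be told apart.

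The differences of the 3 metallothioneins were then set against each other within each array. The log2 difference of Mt2 minus Mt1 was -0.32, -0.14 and -0.18 in control replicates 1, 9 and 11 and -0.43, -0.34 and -0.28 in zinc diet replicates 3, 7 and 10. The diets overlapped on this measure, and the diet difference of Mt2 was 0.14 log2 units more negative than that of Mt1 (two-sided exact permutation p = 0.2, adjusted p = 0.3 over 3 pairs). Mt3 differed from Mt2 by 0.21 (exact permutation p = 0.2) and from Mt1 by 0.072 (exact permutation p = 0.3) in its response to diet. With 3 mice against 3 this test cannot go below 0.1. Unequal responses of the 3 genes were thus not shown, nor were equal ones.

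Co-variation of the metallothioneins across mice passed adjustment for no pair, and r ranged from 0.46 to 0.88. Mt1, Mt2 and Mt3 were all highest in control replicate 11, at 0.15, 0.25 and 0.086 log2 units above their own means over the 6 arrays. Mt1 and Mt2 were both lowest in zinc diet replicate 3, at -0.14 and -0.29, whereas Mt3 was lowest in zinc diet replicate 10. Mt1 and Mt2 gave Pearson r = 0.88 (exact permutation p = 0.022) and Spearman rho = 0.83 (exact permutation p = 0.058) over 6 mice. Adjusted over the 36 pairs of member probe sets, these exact permutation values became p = 0.80 and 0.84. Without the 2 arrays farthest from the median of Mt1, control replicates 1 and 11, r was 0.92. After the diet means were taken out, the deviations of Mt1 and Mt2 still gave r = 0.67. Whether the Mt1 probe set shares signal with Mt2 was not tested.

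Mt3 gave a lower r with each of the other 2. It gave r = 0.71 with Mt1 (exact permutation p = 0.12, adjusted p = 0.89; rho = 0.43, exact permutation p = 0.42, adjusted p = 0.84). This relation rests on control replicates 1 and 11, since without them r was -0.63. With Mt2, Mt3 gave r = 0.46 (exact permutation p = 0.37, adjusted p = 0.95; rho = 0.31, exact permutation p = 0.56, adjusted p = 0.93), and -0.20 for deviations from the diet means. Without the 2 arrays farthest from the median of Mt2, control replicate 11 and zinc diet replicate 3, it was 0.25.

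**Figure D3:**
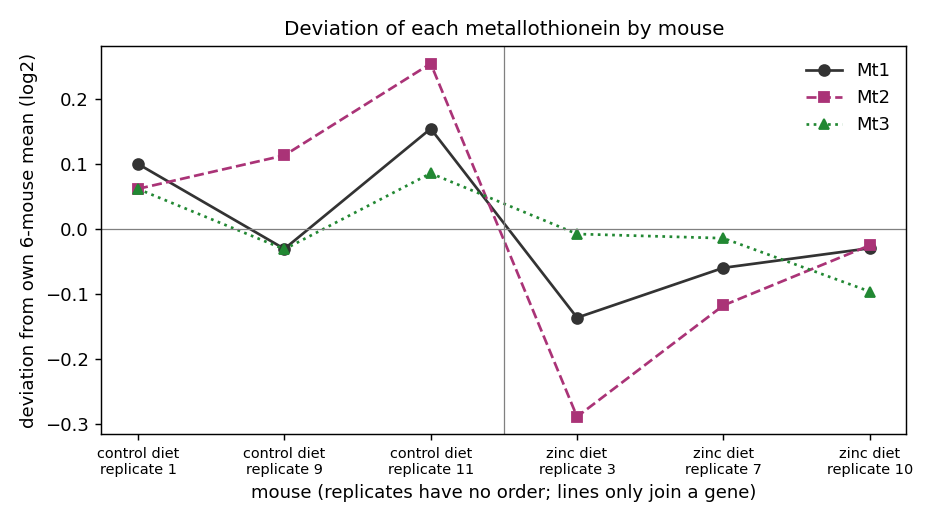
Deviation of Mt1, Mt2 and Mt3 from their own mean over the 6 mice, in log2 units, for each mouse; the vertical line separates the diets, and lines join the values of 1 gene without implying an order. All 3 genes peak in control replicate 11, and Mt1 and Mt2 share their lowest value in zinc diet replicate 3 (-0.14 and -0.29).

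Likeness of this size was not particular to Mt1 and Mt2. The 11220 other named genes tested were ranked by Pearson r over the 6 arrays, each at its probe set with the highest r. Among them Mt2 ranked 234th with Mt1, and Mt1 ranked 236th with Mt2. There were 176 genes with r over 0.9 to Mt1, 156 to Mt2 and 183 to Mt3. The 5 genes most like Mt1 were Pgm1 (r = 0.996), a phosphoglucomutase gene, Ift140 (0.994), which encodes a protein of transport in cilia, the protocadherin gene Pcdh8 (0.994), Snd1 (0.994) and Cwf19l2 (0.991). Those most like Mt2 were Rcc1l (0.996), Dnm2 (0.995), which encodes the endocytic GTPase dynamin 2, the lysophospholipid acyltransferase gene Lpcat4 (0.987), C2cd4c (0.983) and Lrrc4c (0.982), the gene of a netrin-G ligand. For Mt3 they were Csnk1a1 (0.994), a casein kinase gene, the splicing factor gene Puf60 (0.992), the respiratory complex I gene Ndufa10 (0.990), Parvb (0.990) and Proca1 (0.988). None of these 15 is a metallothionein or Mtf1. These values describe 6 arrays and carry no test.

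Mtf1, the sensor gene, gave no uniform difference over its 5 probe sets. Probe set 1428979_at gave 6.04, 5.94 and 5.72 in control replicates 1, 9 and 11 and 6.01, 5.95 and 6.06 in zinc diet replicates 3, 7 and 10. It was the 1 member probe set tested with a higher zinc diet mean, by 0.10 ± 0.10 (SE; 95% interval -0.14 to 0.35; limma adjusted p = 0.90). Control replicate 11, the mouse with the highest Mt1, Mt2 and Mt3, had its lowest value, and without that mouse the difference was 0.012. Without control replicate 1 the difference was 0.17. Probe set 1418333_at gave 5.34, 5.36 and 5.45 in control mice and 5.31, 5.03 and 5.53 in zinc diet mice. The zinc diet mice lay on both sides of the control mice, and the difference was -0.096 ± 0.13 (SE; 95% interval -0.41 to 0.22; limma adjusted p = 0.94). Without zinc diet replicate 7 it was 0.035, and without zinc diet replicate 10 it was -0.22. Probe set 1429170_a_at gave 5.22, 5.52 and 5.30 in control mice and 5.24, 5.09 and 5.30 in zinc diet mice, a difference of -0.13 ± 0.11 (SE; 95% interval -0.39 to 0.12; limma adjusted p = 0.88). Without control replicate 9 it was -0.048, and without control replicate 1 it was -0.20. The remaining probe sets, 1440414_at and 1452990_at, had means of 3.12 and 2.31 and were not tested; their diets overlapped, with mean differences of 0.050 and -0.024. The 3 tested Mtf1 probe sets gave r from -0.11 to 0.59 with each other across the 6 mice, so they did not report 1 common pattern.

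**Figure D4:**
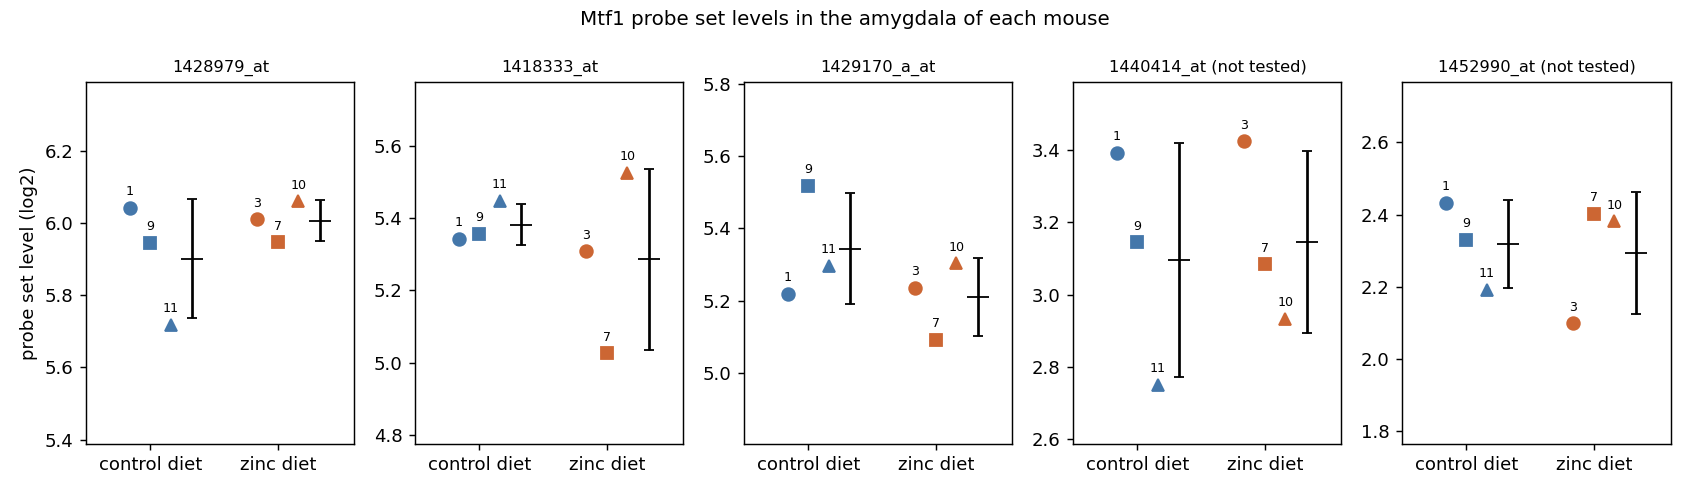
Log2 levels of the 5 Mtf1 probe sets in each mouse, labelled with its replicate number; blue is control diet, orange is zinc diet, bars are mean ± SD of 3 mice, and each panel spans 1 log2 unit. The diets overlap in every panel, and the 2 probe sets marked as not tested lie under the filter of 4.

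No relation of Mtf1 RNA with the metallothioneins was detectable over 6 mice. Over the 9 pairs of a tested metallothionein with a tested Mtf1 probe set, r ran from -0.62 to 0.46 and was below 0 in 5. The smallest exact permutation p among them was 0.20, with adjusted p from 0.89 to 0.98 over the 36 pairs. All 3 metallothioneins were negatively related to 1428979_at, at -0.56 for Mt1, -0.62 for Mt2 and -0.61 for Mt3, but without the 2 arrays farthest from each metallothionein's median these became -0.088, 0.063 and 0.86.

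Of 11 other genes reported as MTF1 targets, 7 were lower and 4 higher in zinc diet mice, with a median of -0.095, and 0 passed over all probe sets in limma. The list includes Slc39a10, a repressed target, so this split and median do not measure 1 direction of MTF1 action. At an unadjusted p under 0.05 there was 1 of the 11, Pgf, against 6.38% of all probe sets tested. That count was 0 with control replicate 1, control replicate 11 or zinc diet replicate 10 left out, and 3 with zinc diet replicate 3 left out. Slc30a1, the plasma membrane zinc exporter that MTF1 is known to induce together with the metallothioneins, gave 10.23, 10.27 and 10.24 in control replicates 1, 9 and 11 and 10.17, 10.03 and 9.96 in zinc diet replicates 3, 7 and 10. All its zinc diet values lay below its control values, as for Mt2, and the difference was -0.19 ± 0.082 (SE; limma adjusted p = 0.78). Pgf, a placental growth factor gene, gave 4.52, 4.23 and 4.44 in control mice and 4.07, 4.18 and 4.06 in zinc diet mice, close to the filter; it was lower by 0.30 log2 units (-0.30 ± 0.096 SE; limma adjusted p = 0.71). Selenow, a selenoprotein gene, gave 12.49, 12.45 and 12.51 against 12.41, 12.40 and 12.35 (-0.095 ± 0.068 SE; limma adjusted p = 0.87). Ndrg1, a stress- and hypoxia-induced gene, went the other way, from 10.17, 9.88 and 10.19 in control mice to 10.27, 10.67 and 10.29 in zinc diet mice (0.33 ± 0.14 SE; limma adjusted p = 0.79). Non-overlapping diets, with zinc diet mice lower, were thus seen in 3 of the 11 and in 5.33% of all probe sets, and with zinc diet mice higher in 1 of the 11 and in 6.66% of all probe sets. Slc39a10, an importer that MTF1 is known to repress, overlapped between diets, with a difference of 0.10 ± 0.076 (SE; limma adjusted p = 0.87).

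**Figure D5:**
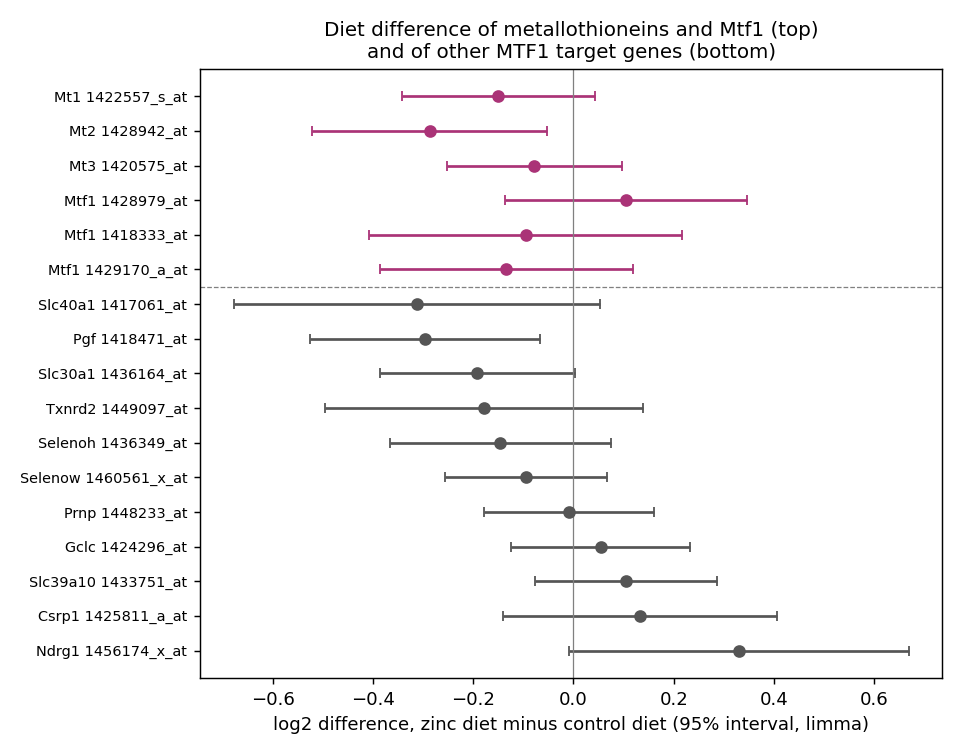
Log2 differences, zinc diet minus control diet, with limma 95% intervals, for the 6 tested probe sets of the metallothioneins and Mtf1 (purple) and for 1 probe set of each of 11 other MTF1 target genes (grey). The intervals of Mt2 (-0.52 to -0.053) and Pgf (-0.53 to -0.066) are the ones that do not reach 0; neither passed after adjustment over all probe sets.

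Other genes of zinc and copper handling showed no common direction, with 0 past the adjusted threshold in limma in any list. At an unadjusted p under 0.05 there was 1 of 8 exporters (Slc30a3), 0 of 12 importers and 1 of 11 copper genes (Cp), against 6.38% of all probe sets tested. The exporter family had 8 tested genes, 4 higher and 4 lower, with a median of -0.0059 (0.041 with no filter). Its diets did not overlap in 3 of the 8, 2 lower and 1 higher in zinc diet mice, against 5.33% and 6.66% of all probe sets. Besides Slc30a1, Slc30a3, which loads zinc into synaptic vesicles, was lower in every zinc diet mouse (8.06, 7.78 and 8.17 against 8.26, 8.61 and 8.87; -0.58 ± 0.18 SE; limma adjusted p = 0.70), and Slc30a4 was higher in each (0.16 ± 0.069 SE; limma adjusted p = 0.78). The importer family had 12 tested genes, 6 in each direction, with a median of 0.0017 (-0.013 under quantile normalization), and its 1 gene without overlap was Slc39a1, higher by 0.10. The copper list had 11 tested genes, 7 higher, with a median of 0.015 (-0.0018 under quantile normalization). Its 1 gene without overlap was the copper-carrying ferroxidase gene Cp, at 5.12, 5.34 and 4.76 in control mice and 5.48, 5.78 and 5.65 in zinc diet mice (0.56 ± 0.16 SE; limma adjusted p = 0.65).

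Genes of the other known inducers of Mt1 and Mt2 were examined in the same way. Of 14 tested glucocorticoid-induced genes, 7 were higher and 7 lower (median 0.0052, and -0.018 under quantile normalization), and the 1 without overlap was Klf9, higher by 0.11. Of 12 tested oxidative stress genes, 9 were higher (median 0.020), but 7 were higher and 5 lower under quantile normalization (median 0.011). The 1 without overlap was Gpx1, higher by 0.10. Of 8 tested genes of STAT3 and interleukin-6 signalling, 7 were higher (median 0.060), and all overlapped between diets. In these 3 lists 0 genes passed the adjusted threshold and 0 had an unadjusted limma p under 0.05, against 6.38% of all probe sets tested. Of all probe sets, 6.66% were higher and 5.33% lower without overlap in zinc diet mice. With so few genes per list, these counts are no result about the inducers.

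Cell type markers were compared beside the metallothioneins, since astrocytes are a main source of Mt1 and Mt2. In the 8 marker lists 0 genes passed the adjusted threshold in limma. For reference, 6.38% of all probe sets tested had an unadjusted p under 0.05, 5.33% were lower without overlap in zinc diet mice and 6.66% were higher without overlap. All 16 astrocyte markers were tested, 7 higher and 9 lower in zinc diet mice with a median of -0.0088. That median turned sign when 1 of 4 mice was left out. It was 0.027 (10 higher and 6 lower) with control replicate 1 omitted and 0.0059 with control replicate 11 omitted. Omitting zinc diet replicate 3 gave 0.019 (9 higher and 7 lower), and omitting replicate 10 gave 0.0092. The list mean was 10.61 to 10.74 in control mice and 10.63 to 10.74 in zinc diet mice. At an unadjusted p under 0.05 there were 0 of the 16, and the 1 gene without overlap was Ndrg2, lower in zinc diet mice (-0.088 ± 0.073 SE; limma adjusted p = 0.89). The astrocyte water channel gene Aqp4 differed by -0.016 ± 0.11 (SE; limma adjusted p = 0.99). The largest differences of the list were those of Gfap, -0.35 ± 0.17, and Sox9, 0.23 ± 0.12 (SE, limma adjusted p = 0.81 and 0.82). The diets overlapped for both. Gfap lay at the filter, with means of 4.20 in control mice and 3.85 in zinc diet mice.

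Choroid plexus and ependymal markers, tested for 6 of 15 genes and all 6 lower in zinc diet mice, had a list mean of 8.02 in control replicate 9 and of 5.29 to 5.86 in the other 5 mice. Kcnj13, at 7.56 in that mouse and 2.94 to 3.45 in the others, reached the filter only through it, as did Kl and Cldn1. The sign of these genes was thus partly set by the filter. With no filter all 14 genes with a probe set were lower. Without control replicate 9, 2 of the 6 tested were higher and 4 lower. The 1 of these 6 without overlap, also the 1 at an unadjusted p under 0.05, was Rarres2, the gene of the secreted protein chemerin, at 5.67, 5.75 and 5.72 in control mice and 5.25, 5.43 and 5.27 in zinc diet mice (-0.40 ± 0.080 SE; limma adjusted p = 0.43). Control replicate 9 did not stand apart for it. That mouse had the lowest Mt1 and Mt3 of the control group. Without it the differences were -0.20 for Mt1, -0.30 for Mt2 and -0.11 for Mt3, against -0.15, -0.29 and -0.078 with all 6 mice. Means of the oligodendrocyte list, 14 genes tested and 11 higher, were 8.65 to 9.18 in control mice and 8.91 to 9.59 in zinc diet mice, with 9.59 in zinc diet replicate 7. Without that replicate Mt1, Mt2 and Mt3 differed by -0.16, -0.30 and -0.091. The myelin gene Mal was the 1 gene of that list without overlap, higher by 0.44 in zinc diet mice (limma adjusted p = 0.80), and the 1 at an unadjusted p under 0.05 was Ermn, whose diets overlapped.

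Excitatory neuron markers differed in both directions, 4 of 11 higher and 7 lower, with a median of -0.095 and list means of 8.94 to 9.01 in control mice against 8.92 to 9.13 in zinc diet mice. At an unadjusted p under 0.05 there were 5 of the 11, 6 under quantile normalization and 4 to 5 with 1 mouse left out, against 6.38% of all probe sets tested. Without overlap, 2 were higher and 3 lower in zinc diet mice, against 6.66% and 5.33%. The basolateral amygdala gene Rspo2, which encodes a secreted activator of Wnt signalling, was at 7.78 to 8.25 in control mice and 8.63 to 9.13 in zinc diet mice (0.77 ± 0.17 SE; limma adjusted p = 0.49). Neurod6, a neuronal transcription factor gene, was at 9.37 to 9.65 and 9.86 to 10.49 (0.67 ± 0.17 SE; limma adjusted p = 0.59). Lower in every zinc diet mouse were Lmo3, at 9.37 to 9.55 against 8.91 to 9.22 (-0.43 ± 0.11 SE; limma adjusted p = 0.57), the transcription factor gene Neurod1 (-0.36 ± 0.10 SE; limma adjusted p = 0.66) and Camk2a, the gene of a synaptic kinase (-0.17 ± 0.074 SE; limma adjusted p = 0.79). Tbr1, a cortical transcription factor gene, was among the 5, and its diets overlapped (0.41 ± 0.16 SE; limma adjusted p = 0.76).

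Inhibitory neuron markers had a median of 0.053 over 12 genes (10.30 to 10.50 against 10.43 to 10.50), and 0 of the 12 had an unadjusted p under 0.05. Without overlap, the calcium-binding protein gene Pvalb was higher by 0.74 and Calb1, another such gene, was lower by 0.18 (-0.18 ± 0.081 SE; limma adjusted p = 0.80). Microglia markers had a median of 0.0018 over 12 genes (-0.0058 under quantile normalization), with list means of 7.37 to 7.50 against 7.41 to 7.44 in zinc diet mice, 0 at an unadjusted p under 0.05, and Aif1 the 1 gene without overlap (-0.080 ± 0.069 SE; limma adjusted p = 0.89). Endothelial and pericyte markers had a median of 0.092 over 11 genes, with 6.94 to 7.07 against 7.05 to 7.12. The endothelial adhesion gene Esam, higher by 0.19, was the 1 of them at an unadjusted p under 0.05, and Pdgfrb, a pericyte receptor gene, was higher by 0.30; the diets of both did not overlap. Meningeal and fibroblast markers had a median of -0.086 over 5 genes (0.16 with no filter and 0.35 without control replicate 9), with 5.31 to 6.31 against 5.78 to 5.82. Of these 5, 2 had an unadjusted p under 0.05 and were higher without overlap, the collagen gene Col1a2 by 0.52 and the transcription factor gene Foxc1 by 0.56 (limma adjusted p = 0.72 and 0.70). The labelled tissue was amygdala. Rspo2 and the central amygdala gene Prkcd, the latter at 5.55 to 6.30 in control mice and 5.93 to 6.17 in zinc diet mice, were above the filter in every mouse. The part of these marker levels in the metallothionein differences was not tested.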

How the data were processed

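RNA was measured once per mouse, on 6 arrays, 3 per diet; nothing groups the arrays into batches. The authors deposited a single table of log2 levels per probe set. The submitters' processing notes list GCRMA 2.28.0 and R 2.15.1, with no role or options given. No source states the log2 scale, which follows from the range of the values. Array medians were 4.04 to 4.09, and whether values were centred is unknown. No detection calls were used, so a low level cannot be told from background, and the number of arrays limits precision.

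The 64 control probe sets were left out. Of 45101 probe sets, 34958 had 1 gene symbol, 932 several and 9211 none. Probe sets with a mean log2 level of at least 4 (22877) were fitted with limma 3.58.1 in R 4.3.3 (two-sided, diet as the only term), with Benjamini-Hochberg adjustment over all of them at 0.05; the fit was tested on simulated data. Lists used 1 probe set per gene, the highest mean, whereas the shares given beside them are over all probe sets tested. In a fit with 1 probe set per gene, 937 of 11221 had an unadjusted limma p under 0.05. Pairs were compared with two-sided exact permutation tests. As alternatives, the filter was dropped or raised to 6, arrays were quantile-normalized or centred on their medians, eBayes was run with trend and robust settings, arrays were weighted, genes were represented by their highest probe set or by an average over probe sets, values under 4 were set to 4, and each mouse was left out. Named genes were all members, list genes whose diets did not overlap (up to 6 per list), and the 5 genes most correlated with each metallothionein; other list genes given were chosen after their values were seen. Members and lists were chosen with earlier results of these data known.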

Additional observations from a re-analysis of the deposited data

How the results depend on the processing

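Over 15 alternative settings for each of Mt1, Mt2 and Mt3, all 45 recomputed diet differences stayed below 0 and 0 passed the adjusted threshold. Many of these signs were fixed in advance. Settings that changed the filter, the eBayes options, the probe sets taken per gene or values under 4 could not move these differences. Leaving out 1 mouse gave -0.20 to -0.11 for Mt1, -0.35 to -0.21 for Mt2 and -0.11 to -0.050 for Mt3, and the other settings gave -0.15 to -0.14, -0.30 to -0.27 and -0.10 to -0.066. The limma adjusted p ranged from 0.39 to 0.9999 for Mt2, 0.53 to 0.9999 for Mt1 and 0.73 to 0.9999 for Mt3. The unadjusted limma p of Mt2 was under 0.05 in 12 of its 15 settings, but the settings that kept every mouse refit nearly the same difference. The exceptions were all fits with 1 mouse left out. That p was 0.075 without control replicate 11, 0.078 without zinc diet replicate 3 and 0.052 without zinc diet replicate 7. It stayed under 0.05 without control replicate 1, control replicate 9 or zinc diet replicate 10. The Mtf1 probe set 1418333_at turned sign, to 0.035, without zinc diet replicate 7, and ranged from -0.22 to 0.035 with 1 mouse left out. Across all probe sets the number past the adjusted threshold was 2 with a mean of at least 6, 3 with trend and robust eBayes, 1 with 1 probe set per gene and 1 with probe sets averaged by gene, and 0 in the rest, with 0 to 0 when 1 mouse was left out. The number at an unadjusted p under 0.05, 1460, was 2241 without control replicate 1, 853 without zinc diet replicate 7, 2345 with array weights, 2429 with no filter, 937 with 1 probe set per gene and 927 with probe sets averaged by gene, the last 3 over other numbers of probe sets.

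The correlation of Mt1 and Mt2 was 0.77 to 0.97 with 1 mouse left out and 0.88 under quantile normalization, median centring and values under 4 set to 4. That of Mt1 and Mt3 was 0.47 to 0.89 and that of Mt2 and Mt3 0.058 to 0.62 with 1 mouse left out, the lowest of each without control replicate 11. The unequal diet change was -0.19 to -0.095 for Mt2 against Mt1, 0.025 to 0.12 for Mt3 against Mt1 and 0.12 to 0.30 for Mt3 against Mt2. The median of the MTF1 targets stayed between -0.11 and -0.038. With 1 mouse left out the medians of 8 lists took both signs, at -0.071 to 0.012 for zinc exporters, -0.028 to 0.031 for importers, -0.036 to 0.056 for copper genes, -0.050 to 0.044 for glucocorticoid-induced genes, -0.066 to 0.027 for astrocyte, -0.041 to 0.025 for microglia, -0.0036 to 0.091 for inhibitory neuron and -0.17 to 0.35 for meningeal markers. Without control replicate 9 the choroid plexus median was -0.032, against -0.71 with it, and without zinc diet replicate 7 the oligodendrocyte median was 0.13, against 0.37. No paired analysis was possible because the diets share no replicate numbers. Signal over background was not at hand, which limits the probe sets near the filter.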
